A study of Homo sapiens with 18 samples.

Results

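The 34 genes described here build the primary or the motile cilium, or encode the transcription factors that switch such genes on. They were taken by symbol from a written list, and all 34 had a row among the 26485 gene rows of the files. Of these, 31 passed the filter on low counts, which left 12215 genes to test in all. The other 3 were IFT57, with 3 to 11 counts summed over the 3 libraries of a group, RPGRIP1L, with 2 to 21, and CCDC39, with 0 to 3. RNA came from WIBR3, an established human embryonic stem cell (hESC) line, as LIS1+/+ or LIS1+/- cells. Each genotype was sampled at 3 stages, as hESC and as organoids at Day 5 and Day 12, in 6 groups of 3 libraries (18 in all). LIS1 is the product of PAFAH1B1 and regulates cytoplasmic dynein, a motor that walks along microtubules. The labels give no further allele or agent, nor the number of clones behind LIS1+/-, and genotype therefore cannot be told apart from clone. Nothing in them shows that a group's libraries are separate cultures, so the p-values cover the spread among these libraries and nothing wider.

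A cilium is a projection built on a core of microtubules that grows from a centriole docked at the cell surface. The primary cilium of a neural progenitor does not beat and receives signals such as Hedgehog. Motile cilia beat, and in the brain they are carried mainly by ependyma and choroid plexus. Proteins move inside the cilium on trains of IFT-B and IFT-A complexes, outward with kinesin-2 and back with dynein 2. The BBSome loads membrane proteins onto these trains, and the transition zone gates the base. RFX factors bind the X-box, a DNA motif in the promoters of many cilium genes, and FOXJ1 is the main switch for genes of motile cilia.

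Libraries held 1425098 to 4501489 counts over genes, so 1 count was worth 0.225 to 0.668 CPM (counts scaled to library size, with TMM factors). PAFAH1B1 was lower in LIS1+/- by 0.68 ± 0.11 log2 (SE) averaged over the stages (adjusted p = 0.000812, edgeR), and the libraries of the genotypes did not overlap at any of the 3 stages. The summed level of 6 stem cell markers was 4704 to 4965 CPM in hESC LIS1+/+ and 3610 to 3839 CPM in hESC LIS1+/-. At Day 12 it was 121 to 251 CPM. Neural progenitor markers summed to 1081 to 1311 CPM in hESC and 2274 to 3618 CPM at Day 5. In an earlier analysis 3 libraries stood apart (replicate 3 of hESC LIS1+/+, replicate 2 of Day 5 LIS1+/-, and Day 12 LIS1+/+ replicate 2), and named calls that were lost without them are marked as such. Each stage carries its own pool number in the file names, and the effect of a stage cannot be told apart from that of its sequencing pool. In bulk RNA, more cells of a type and more RNA per cell cannot be told apart either.

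The transcription factors rose at each step from hESC to Day 12 in most comparisons. RFX4 had the largest change among the 4 from hESC to Day 5 and from hESC to Day 12, and FOXJ1 from Day 5 to Day 12, in both genotypes. RFX4, a factor of the developing dorsal brain and of cilium genes, was at 0, 0.668 and 1.86 CPM in the hESC LIS1+/+ libraries. It was at 25.1, 20.1 and 29.1 CPM at Day 5 and at 96.9, 101 and 50.6 CPM at Day 12. The LIS1+/- libraries held 2.53, 2.25 and 1.80 CPM in hESC, 17.6, 51.5 and 23.1 CPM at Day 5, and 90.3, 75.4 and 64.1 CPM at Day 12. In both genotypes the stages did not overlap with the next, and the 2 genotypes overlapped at every stage. From hESC to Day 5 the change was 4.92 ± 0.62 log2 in LIS1+/+ (adjusted p = 7.59e-07) and 3.81 ± 0.48 log2 in LIS1+/- (adjusted p = 7.65e-07). From Day 5 to Day 12 it was 1.73 ± 0.32 log2 (adjusted p = 0.000393) and 1.31 ± 0.32 log2 (adjusted p = 0.00582). The first LIS1+/+ value rested on few hESC counts: it was 4.22 without hESC LIS1+/+ replicate 1, 6.25 without replicate 3, and 6.26 without the 3 libraries that stood apart.

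RFX2, which acts with FOXJ1 in ciliated tissues, followed the same order. Its LIS1+/+ libraries held 0.476, 6.01 and 1.86 CPM in hESC, 15.7, 12.2 and 16.9 CPM at Day 5, and 33.6, 25.2 and 69.1 CPM at Day 12. The LIS1+/- libraries held 6.31, 4.96 and 2.89 CPM, then 21.3, 23.8 and 20.5 CPM, then 55.6, 59.2 and 51.0 CPM. No library of one stage reached the next stage in its own genotype. RFX2 rose by 2.53 ± 0.49 log2 (LIS1+/+, adjusted p = 0.000177) and 2.27 ± 0.42 log2 (LIS1+/-, adjusted p = 9.40e-05) to Day 5. It rose again by 1.53 ± 0.33 log2 (adjusted p = 0.00142) and 1.34 ± 0.32 log2 (adjusted p = 0.00487) to Day 12. The first of these values was 1.93 without hESC LIS1+/+ replicate 1 and 3.73 without replicate 2.

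FOXJ1 rose in both steps, with the larger values at the second. Its LIS1+/+ libraries held 6.19, 4.68 and 4.35 CPM in hESC, 12.8, 13.5 and 6.31 CPM at Day 5, and 49.1, 39.0 and 63.3 CPM at Day 12. The LIS1+/- libraries held 7.58, 5.41 and 3.25 CPM, then 10.8, 11.0 and 10.8 CPM, then 119, 56.9 and 88.6 CPM. Day 12 stood clear of Day 5 in both genotypes, while the lowest Day 5 library of LIS1+/+ lay just above the highest hESC library. The second step was 4.65-fold in LIS1+/+ (2.22 ± 0.30 log2, adjusted p = 6.03e-06) and 7.99-fold in LIS1+/- (3.00 ± 0.31 log2, adjusted p = 9.23e-08). The first step was 2.10-fold (adjusted p = 0.0285) and 2.11-fold (adjusted p = 0.0265). That first call was lost in LIS1+/+ without hESC replicate 2 or 3, without Day 5 replicate 1 or 2, and without the 3 libraries that stood apart (adjusted p up to 0.114). In LIS1+/- it was lost without hESC replicate 2 or 3, without Day 5 replicate 3, and when only the compared groups were fitted (adjusted p up to 0.166).

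RFX3, needed for cilium growth in many tissues, was called at a different step in each genotype. The LIS1+/+ libraries held 3.33, 5.34 and 2.48 CPM in hESC, 9.41, 2.93 and 8.12 CPM at Day 5, and 14.9, 20.1 and 11.2 CPM at Day 12. Those of LIS1+/- held 0.631, 1.80 and 1.08 CPM, then 7.48, 8.41 and 4.97 CPM, then 14.2, 13.7 and 12.5 CPM. From hESC to Day 5 the libraries overlapped in LIS1+/+ (0.88 ± 0.47 log2, not called) and did not in LIS1+/- (2.46 ± 0.56 log2, adjusted p = 0.000794). The difference of those changes was 1.58 ± 0.76 log2 and did not pass (adjusted p = 0.400). The second step passed in LIS1+/+ (1.16 ± 0.39 log2, adjusted p = 0.0304). It was lost without Day 5 LIS1+/+ replicate 2, without Day 12 replicate 1 or 2, without the 3 libraries that stood apart, and when only the compared groups were fitted (adjusted p up to 0.162).

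**Figure D1:**
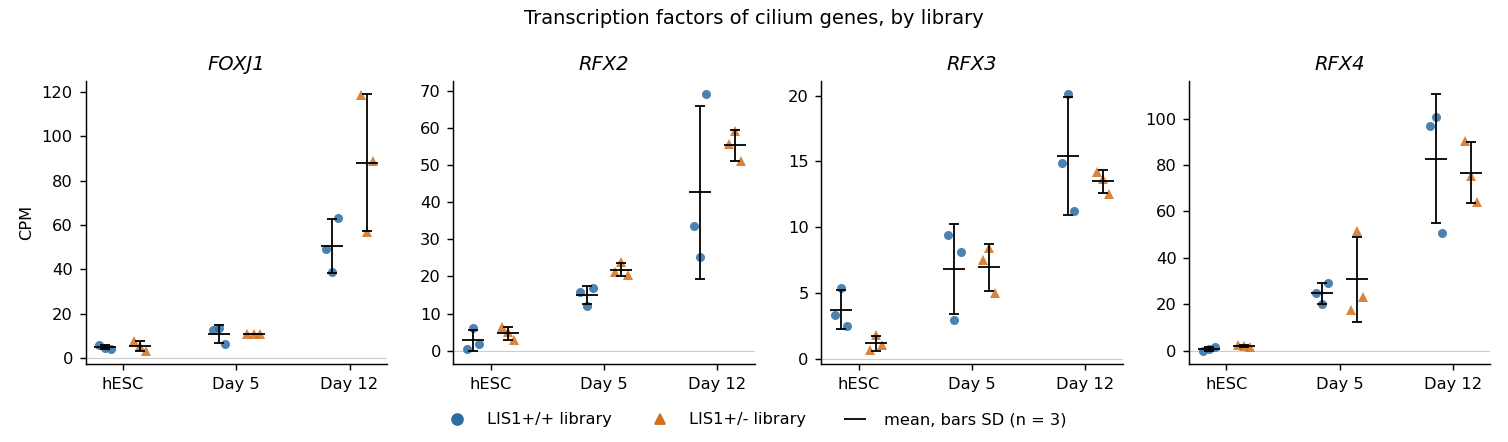
CPM (linear axis) of FOXJ1, RFX2, RFX3 and RFX4 in each of the 18 libraries by stage, with circles for LIS1+/+, triangles for LIS1+/-, and the mean ± SD of 3 libraries in black. The means of all 4 genes are highest at Day 12, and RFX4 is at most 2.53 CPM in hESC.

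Because 3 of these factors bind the X-box, its letters were searched in the promoters of the members, from 250 bases before to 50 after the start (RefSeq, GRCh38.p14). A promoter was found for 30 of the 34 members, with none for WDR35, BBS9, FOXJ1 and RFX2. The full motif searched was GTTNCC followed, after 2 free letters, by GGNAAC. It reads the same on both strands, and at most 1 mismatch was allowed in its 10 fixed letters. It was found in 5 of 30 members (16.7%), RFX4, CCNO, DYNC2LI1, IFT172 and IFT57, against 3.27% of 27305 genes. The shorter site GTTGCC, on either strand and also counted inside a full motif, was found in 14 of 30 members (46.7%), against 14.6% of genes. In STOML3 neither was found. The windows below end at or before the start site, except that of RFX4, whose motif runs 3 bases past it. Capitals mark the full motif, or otherwise GTTGCC or its reverse complement GGCAAC. Windows are shown for a selection of these members only. Those of IFT172, BBS1, IFT81 and DYNC2H1, among others, are not shown.
RFX4, chr12:106601107-106601150, plus strand: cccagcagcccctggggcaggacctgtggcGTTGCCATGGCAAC
CCNO, chr5:55233802-55233858, minus strand: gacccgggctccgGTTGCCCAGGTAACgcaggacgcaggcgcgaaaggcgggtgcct
DYNC2LI1, chr2:43773993-43774038, plus strand: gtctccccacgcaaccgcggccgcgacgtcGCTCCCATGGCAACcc
BBS5, chr2:169479450-169479493, plus strand: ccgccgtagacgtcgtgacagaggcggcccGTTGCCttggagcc
IFT122, chr3:129440182-129440223, plus strand: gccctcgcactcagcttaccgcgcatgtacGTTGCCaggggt
DRC1, chr2:26401879-26401919, plus strand: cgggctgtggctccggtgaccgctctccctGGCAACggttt
The RFX4 and CCNO motifs matched all 10 fixed letters, and that of DYNC2LI1 had 1 mismatch. The RFX4 motif began 11 bases before the start, in 1 of its 3 windows, and that of CCNO began 237 bases before it, in 1 of 2 windows. In BBS5, IFT122, DRC1 and DYNC2LI1 the marked letters began 11 to 16 bases before the start. Among the members not shown this distance varied more. Their sites began from 237 bases before the start (IFT74, and 28 in another of its windows) to 28 bases after it (IFT172). IFT46 was at 196, CCDC39 at 175, DYNC2H1 at 51, IFT27 at 41 and IFT57 at 30 bases before it. The site of IFT81 began at the start itself, that of BBS1 1 base after it and that of IFT88 16 bases after it.

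Of the 31 tested members, 15 rose and 0 fell from hESC to Day 5 in LIS1+/+, where 22.9% of all tested genes rose and 21.7% fell. Their median change was 0.88 log2, against 0.06 over all tested genes. In LIS1+/-, 16 rose and 1 fell, where 22.4% of all tested genes rose and 21.4% fell, again with a median of 0.88 against 0.06. A set of 12 members rose in both genotypes: IFT52, IFT74, IFT81, IFT122, IFT140, WDR19, BBS1, BBS2, BBS5, FOXJ1, RFX2 and RFX4. Of the 15 calls in LIS1+/+, 10 held under every alternative run, and those of BBS2, DYNC2H1, FOXJ1, IFT52 and IFT88 were lost under at least 1. Of the 17 in LIS1+/-, 12 held, and those of FOXJ1, IFT43, IFT52, IFT74 and IFT80 were lost under at least 1.

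Among the IFT-A genes, whose complex carries cargo back from the tip, 3 of 6 rose by Day 5 in LIS1+/+. IFT140 stood at 4.76, 10.02 and 4.97 CPM in hESC LIS1+/+ and at 39.3, 41.7 and 45.6 CPM at Day 5. Those of LIS1+/- stood at 21.5, 9.47 and 8.66 CPM and then at 46.7, 30.7 and 40.1 CPM. The stages did not overlap in either genotype, and the increase was 6.54-fold in LIS1+/+ (2.71 ± 0.33 log2, adjusted p = 1.93e-07) and 3.11-fold in LIS1+/- (1.64 ± 0.29 log2, adjusted p = 5.52e-05). The 2 increases differed by 1.07 ± 0.45 log2 in size, which did not pass (adjusted p = 0.329). The 3′ end of IFT140 lies within 1000 bases of exons of TELO2 on the other strand, and the sources used here do not say if counting was strand-specific.

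WDR19, which encodes the IFT-A subunit IFT144, was at 4.29, 6.68 and 3.10 CPM in hESC LIS1+/+ and at 24.1, 21.4 and 19.2 CPM at Day 5. The LIS1+/- values were 6.94, 9.47 and 9.38 CPM and then 23.9, 31.1 and 22.5 CPM. No Day 5 library fell to the hESC range, and the rise was 4.62-fold (2.21 ± 0.33 log2, adjusted p = 5.43e-06) and 2.95-fold (1.56 ± 0.29 log2, adjusted p = 9.65e-05). IFT122, another IFT-A subunit, went from 32.4, 30.7 and 16.8 CPM to 65.6, 82.9 and 75.3 CPM in LIS1+/+. The LIS1+/- libraries went from 30.3, 35.6 and 33.9 CPM to 69.9, 47.9 and 81.9 CPM. Its stages stayed apart in both genotypes, with changes of 1.48 ± 0.22 log2 (adjusted p = 6.25e-06) and 1.00 ± 0.22 log2 (adjusted p = 0.000543). TTC21B and WDR35 were not called at this step in either genotype, and IFT43 rose in LIS1+/- (0.72 ± 0.22 log2, adjusted p = 0.00987), a call lost without hESC LIS1+/- replicate 3 (adjusted p = 0.0533).

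Among the IFT-B genes, whose complex drives outward transport, 5 of 9 tested rose by Day 5 in each genotype. IFT81, which helps carry tubulin, was at 6.67, 11.4 and 1.86 CPM in hESC LIS1+/+ and at 22.7, 15.3 and 27.1 CPM at Day 5. The LIS1+/- values were 2.53, 9.02 and 8.66 CPM and then 23.5, 33.3 and 21.1 CPM. The stages did not overlap, and the rise was 3.29-fold (1.72 ± 0.45 log2, adjusted p = 0.00312) and 3.64-fold (1.86 ± 0.43 log2, adjusted p = 0.00104). IFT172 stood at 12.4, 8.02 and 9.93 CPM in hESC LIS1+/+ and rose to 30.9, 24.6 and 26.2 CPM (1.40 ± 0.32 log2, adjusted p = 0.00075). The LIS1+/- libraries overlapped, with 7.58, 22.5 and 20.9 CPM before and 20.2, 18.6 and 27.8 CPM after (0.35 ± 0.29 log2, not called). The difference of these 2 changes did not pass (-1.06 ± 0.43 log2, adjusted p = 0.316). IFT74 and IFT52 rose in both genotypes by 0.58 to 1.47 log2. The IFT52 call was lost without hESC LIS1+/+ replicate 1 or 3, without hESC LIS1+/- replicate 2 or 3 or Day 5 LIS1+/- replicate 2, and without the 3 libraries that stood apart (adjusted p up to 0.128). The LIS1+/- call of IFT74 was lost without hESC replicate 1 or 3, Day 5 replicate 2 or 3, or the 3 libraries that stood apart (adjusted p up to 0.109). IFT46 rose in LIS1+/- (0.94 ± 0.23 log2, adjusted p = 0.00188), as did IFT80 (0.88 ± 0.36 log2, adjusted p = 0.0492), whose call was lost under most alternatives, leaving out hESC replicate 1 or 2, Day 5 replicate 1 or 2, or the 3 libraries that stood apart among them (adjusted p up to 0.243). IFT88 rose in LIS1+/+ (1.66 ± 0.68 log2, adjusted p = 0.0477), a call that was lost when any 1 of the 6 compared libraries was left out (adjusted p up to 0.198). It was also lost without the 3 libraries that stood apart (1.13, adjusted p = 0.183), with DESeq2 size factors (adjusted p = 0.0521) and with the replicate block (adjusted p = 0.0582).

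Among the BBSome genes, 3 of 6 rose by Day 5 in each genotype. BBS1 was at 17.1, 17.4 and 16.1 CPM in hESC LIS1+/+ and at 56.4, 46.2 and 58.4 CPM at Day 5. Among LIS1+/- libraries it was at 29.04, 17.6 and 23.4 CPM and then at 59.4, 59.6 and 71.1 CPM. The groups did not overlap between stages, and BBS1 rose 3.17-fold (1.67 ± 0.21 log2, adjusted p = 4.69e-07) and 2.74-fold (1.46 ± 0.20 log2, adjusted p = 1.59e-06). BBS5, a subunit that binds membrane lipids, went from 2.38, 3.34 and 13.7 CPM to 32.6, 31.3 and 25.0 CPM in LIS1+/+, and from 5.68, 4.96 and 5.05 CPM to 28.8, 53.7 and 36.9 CPM in LIS1+/-. Of its hESC libraries only LIS1+/+ replicate 3 exceeded 6 CPM. The change in LIS1+/+ was 2.24 ± 0.38 log2 (adjusted p = 2.97e-05), and 3.39 without that library. The change in LIS1+/- was 2.93 ± 0.37 log2 (adjusted p = 4.92e-07). BBS4, BBS7 and BBS9 were not called at this step.

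Dynein 2, the motor of the return trip, gave less even values. Its heavy chain DYNC2H1 was at 0, 2.67 and 1.86 CPM in hESC LIS1+/+ and at 7.58, 5.86 and 2.89 CPM in hESC LIS1+/-. At Day 5 it was at 8.68, 5.63 and 5.64 CPM in LIS1+/+ and at 5.61, 10.2 and 5.85 CPM in LIS1+/-. The LIS1+/+ libraries of hESC lay below all others of both stages. The rise in LIS1+/+ was 2.23 ± 0.65 log2 (adjusted p = 0.0067). Without hESC LIS1+/+ replicate 1 it was 1.54 and not called (adjusted p = 0.0558), and without replicate 2 it was 2.94. DYNC2LI1, the light intermediate chain, and CEP290, a transition zone protein, were not called at this step in either genotype.

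**Figure D2:**
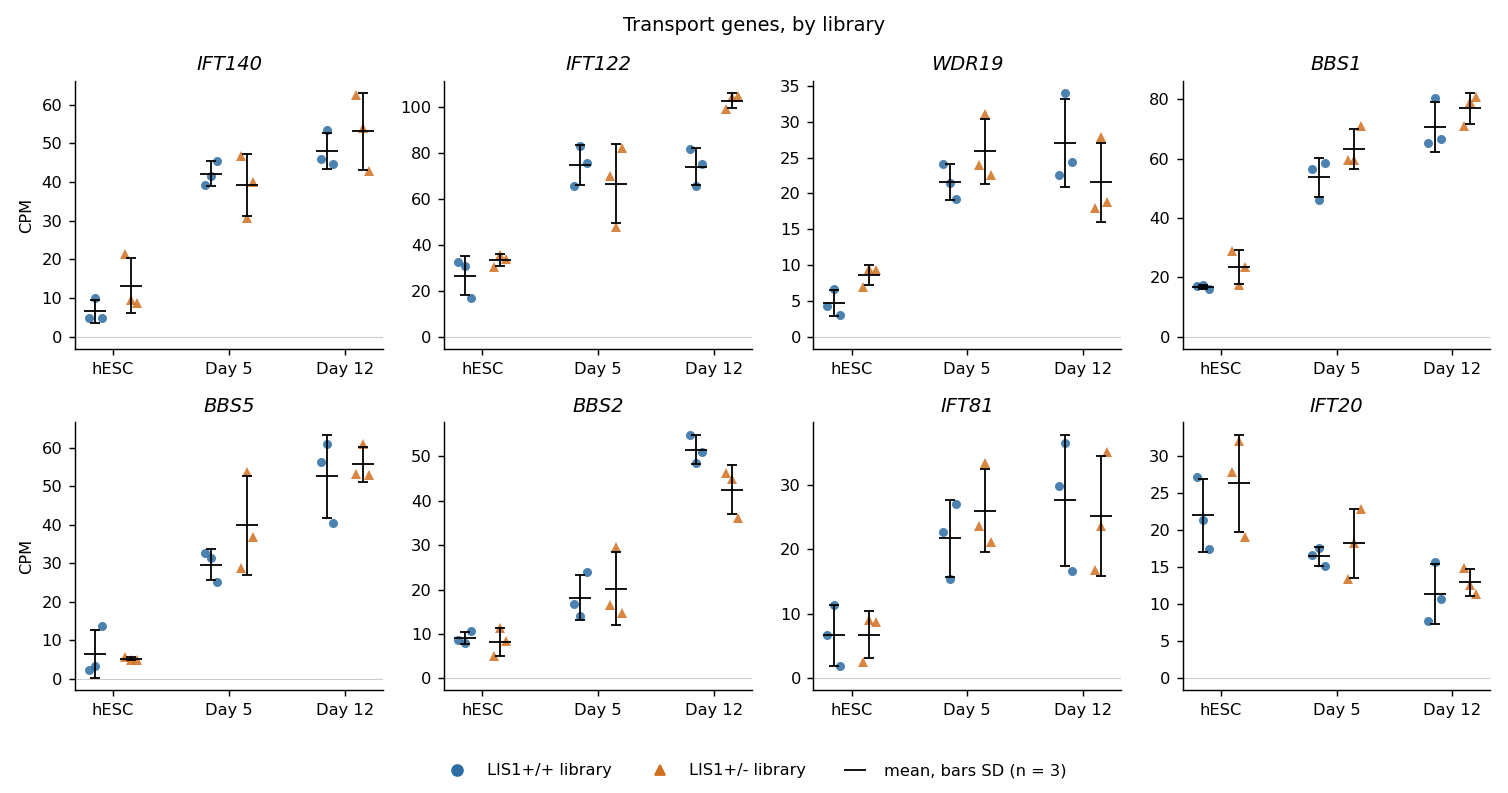
CPM (linear axes) of 8 transport genes in each of the 18 libraries by stage, with circles for LIS1+/+, triangles for LIS1+/-, and the mean ± SD of 3 libraries in black. IFT140, IFT122, WDR19, BBS1, BBS5 and IFT81 rise between hESC and Day 5, BBS2 mainly between Day 5 and Day 12, and IFT20 is lowest at Day 12.

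From Day 5 to Day 12, 9 of the 31 members rose and 1 fell in LIS1+/+, where 12.7% of all tested genes rose and 11.7% fell. In LIS1+/-, 10 rose and 0 fell, where 8.9% of all tested genes rose and 7.64% fell. The median member changed by 0.47 and 0.49 log2, against 0.02 and -0.01 over all tested genes. BBS2, FOXJ1, RFX2, RFX4 and DRC1 rose in both genotypes. Of the 6 IFT-A genes none was called in LIS1+/+ (edgeR, adjusted p under 0.05), and IFT122 was called in LIS1+/-. The factors and the BBSome held most of the LIS1+/+ calls, with 4 of 4 factors and 3 of 6 BBSome genes higher.

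BBS2 stood at 8.57, 8.02 and 10.6 CPM in hESC LIS1+/+, at 16.6, 13.97 and 23.9 CPM at Day 5 and at 54.9, 48.4 and 51.1 CPM at Day 12. Those of LIS1+/- stood at 5.05, 11.3 and 8.29 CPM, then at 16.4, 29.6 and 14.6 CPM, then at 46.4, 45.0 and 36.2 CPM. Day 12 lay above Day 5 in every library of the same genotype, by 1.499 ± 0.27 log2 (adjusted p = 0.000214) and 1.07 ± 0.27 log2 (adjusted p = 0.00684). The LIS1+/- call was lost without Day 5 LIS1+/- replicate 3 (adjusted p = 0.0532), and the LIS1+/+ call from hESC to Day 5 (1.00 ± 0.32 log2, adjusted p = 0.0125) was lost without Day 5 LIS1+/+ replicate 3 (adjusted p = 0.0814). In LIS1+/+ alone IFT46, an IFT-B subunit, passed with 0.87 ± 0.22 log2 (adjusted p = 0.00409) and BBS4 with 0.98 ± 0.25 log2 (adjusted p = 0.00464). BBS5 also passed there (0.82 ± 0.29 log2, adjusted p = 0.0428), and that call was lost without any 1 of the Day 5 LIS1+/+ libraries or without Day 12 LIS1+/+ replicate 1 or 2 (adjusted p up to 0.140). The differences of these 3 between genotypes did not pass. IFT27, IFT172, IFT122, BBS7 and CCNO passed in LIS1+/- and not in LIS1+/+, and again none of those differences passed. The LIS1+/- calls of IFT172, IFT122 and BBS7 were each lost when any of several single libraries was left out (adjusted p up to 0.160). Those of IFT172 (adjusted p = 0.0646) and IFT122 (adjusted p = 0.0738) were also lost without the 3 libraries that stood apart.

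DRC1, a subunit of the nexin-dynein regulatory complex that links the microtubule doublets of motile axonemes, appeared at Day 12. It had 1 count in all hESC LIS1+/+ libraries, 1 in those of LIS1+/-, 2 at Day 5 in LIS1+/+ and 0 at Day 5 in LIS1+/-. At Day 12 it was at 10.3, 21.4 and 19.95 CPM in LIS1+/+ and at 15.5, 13.9 and 6.27 CPM in LIS1+/-, so the stages stood far apart and the genotypes overlapped. The ratio of pooled counts from Day 5 to Day 12 in LIS1+/+ was 114, with a 95% counting interval of 30.7 to 956. In LIS1+/- it was at least 32.7-fold higher at Day 12, against a floor of 3 counts over the Day 5 group. Both steps passed in edgeR (adjusted p = 1.06e-06 and 4.11e-06), and the median of the members is the same with DRC1 set at its bound.

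At Day 12 markers of choroid plexus and roof plate, tissues with motile cilia or next to them, were higher in sum, as were many of these genes. The summed level of 10 such markers was 4.35 to 13.5 CPM in hESC, 109 to 244 CPM at Day 5, and 425 to 734 CPM in LIS1+/+ and 514 to 568 CPM in LIS1+/- at Day 12. From Day 5 to Day 12 in LIS1+/+, 7 of the 8 tested markers rose and 1 fell, and in LIS1+/- 4 rose and 0 fell. RSPO1 made up a large part of the Day 12 sums, at 156 to 283 CPM in LIS1+/+ and 357 to 369 CPM in LIS1+/-. FOLR1 went from 12.2 to 22.7 CPM at Day 5 to 4.52 to 6.81 CPM at Day 12 in LIS1+/+. KCNJ13 did not exceed 2.52 CPM in any library. GDF7 was at 0 at every stage and TTR was at 0 before Day 12. Markers of floor plate and node summed to 202 to 253 CPM at Day 5 and 218 to 521 CPM at Day 12, with NOTO at 0 at Day 12, SHH at 0 there in LIS1+/+ and FOXA2 in LIS1+/-. Of the 4 tested, 1 rose and 2 fell between these days in LIS1+/+, and 1 rose and 1 fell in LIS1+/-. Their part in the changes of the cilium genes was not tested.

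From hESC to Day 12, 21 of 31 members rose and 2 fell in LIS1+/+, where 28.1% of all tested genes rose and 25% fell. In LIS1+/-, 22 rose and 3 fell, where 26.7% rose and 25.4% fell. The medians were 1.44 and 1.32 log2, against 0.09 and 0.04 over all tested genes. The members called in neither genotype were TTC21B, DYNC2H1, DYNC2LI1, BBS7 and BBS9. IFT20, an IFT-B subunit that also sits at the Golgi, fell in both: 27.1, 21.4 and 17.4 CPM in hESC LIS1+/+ went to 7.75, 15.7 and 10.7 CPM, and 27.8, 32.0 and 19.1 CPM in LIS1+/- went to 14.8, 12.5 and 11.4 CPM. The stages did not overlap, and the changes were -0.96 ± 0.32 log2 (adjusted p = 0.0130) and -1.03 ± 0.29 log2 (adjusted p = 0.00415). The LIS1+/+ call was lost without hESC LIS1+/+ replicate 1 or Day 12 LIS1+/+ replicate 1 (adjusted p up to 0.0803). Its 3′ end lies within 1000 bases of exons of TMEM97 on the other strand. WDR35, an IFT-A subunit, fell in LIS1+/- (-1.57 ± 0.52 log2, adjusted p = 0.0134), a call lost without hESC LIS1+/- replicate 3 or Day 12 LIS1+/- replicate 1 (adjusted p up to 0.0582). CEP290 rose in LIS1+/- from 4 to 25 counts (adjusted p = 0.0378), a call lost without any 1 of the 6 compared libraries (adjusted p up to 0.108). Its 3′ end lies within 1000 bases of exons of C12orf29 on the other strand.

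**Figure D3:**
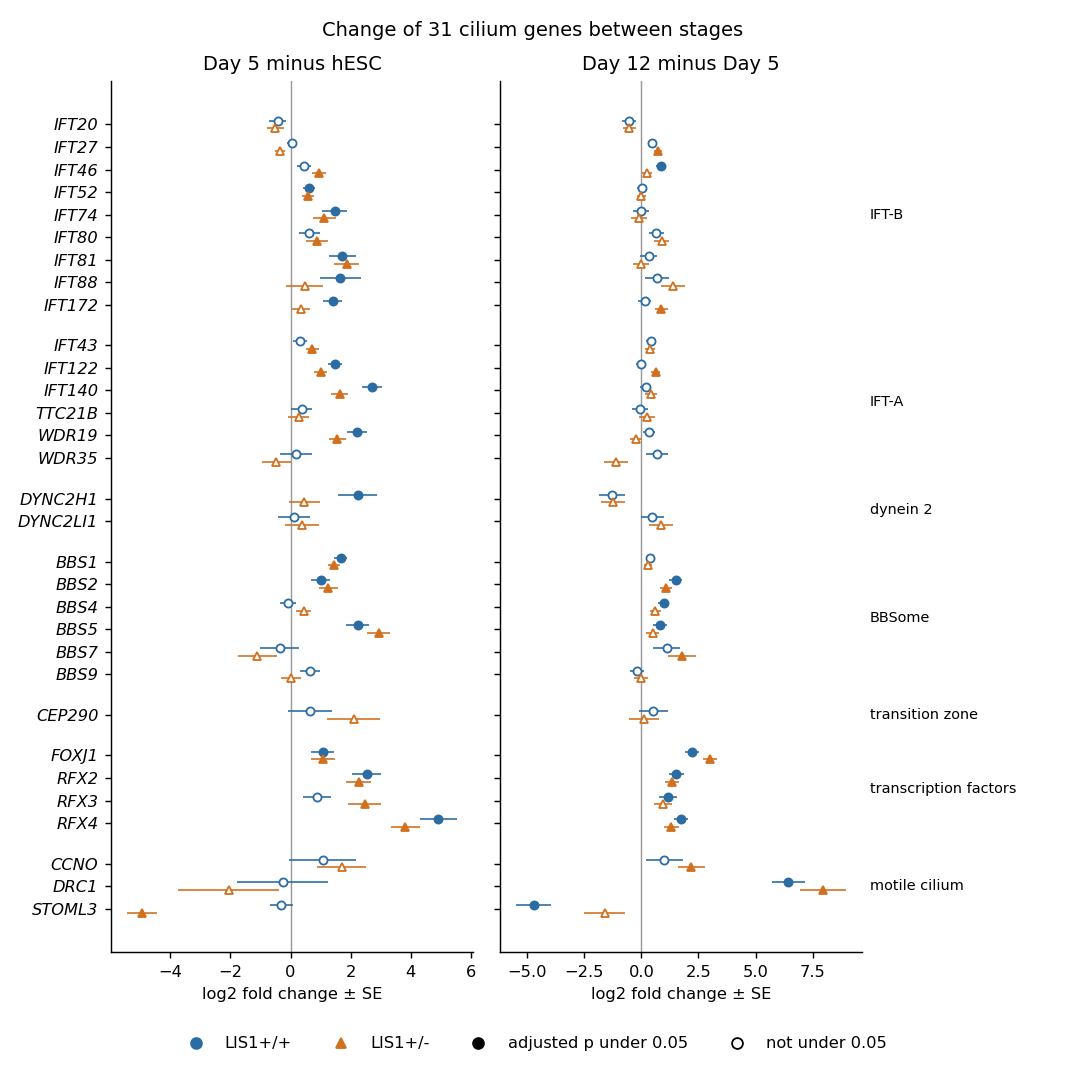
Log2 fold change ± SE (edgeR) of the 31 tested members from hESC to Day 5 (left) and from Day 5 to Day 12 (right), with circles for LIS1+/+ and triangles for LIS1+/-, filled where the adjusted p is under 0.05. Filled points lie mainly right of 0 on the left, and DRC1 lies farthest right on the right; its fitted LIS1+/- value there depends on a prior count, since the Day 5 libraries had 0 counts.

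STOML3 fell to almost no counts by Day 12, in LIS1+/- between hESC and Day 5 and in LIS1+/+ between Day 5 and Day 12. STOML3 is a stomatin-family membrane protein known from the cilia of olfactory neurons and from touch receptors. In hESC it was at 7.62, 9.35 and 6.21 CPM in LIS1+/+ and at 33.5, 27.0 and 17.3 CPM in LIS1+/-. At Day 5 it was at 7.48, 5.86 and 5.41 CPM in LIS1+/+ and at 0.748, 0.731 and 0.878 CPM in LIS1+/-. At Day 12 it had 1 count over the LIS1+/+ libraries, in replicate 2, and 2 in all LIS1+/- libraries. The genotypes did not overlap in hESC, with LIS1+/- higher, nor at Day 5, with LIS1+/- lower. In LIS1+/+ the hESC and Day 5 libraries overlapped (-0.30 ± 0.40 log2, not called), and STOML3 fell between Day 5 and Day 12, with a ratio of pooled counts of 32.3 (95% counting interval 5.64 to 1292, adjusted p = 7.04e-05). In LIS1+/- it fell between hESC and Day 5 by 30.7-fold (-4.94 ± 0.49 log2, adjusted p = 5.72e-09).

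The genotype difference of STOML3 was 1.73 ± 0.38 log2 in hESC (3.32-fold higher in LIS1+/-, adjusted p = 0.0326). It was -2.91 ± 0.52 log2 at Day 5 (7.50-fold lower in LIS1+/-, adjusted p = 0.00159). The change of this difference between the stages was -4.64 ± 0.64 log2 (adjusted p = 0.000339), and it lay between -4.87 and -4.43 under all 18 alternatives, with adjusted p up to 0.00248. The Day 5 call also held under each of its 12 alternatives. The hESC call did not: it was lost when LIS1+/+ replicate 1, 2 or 3 or LIS1+/- replicate 1 or 2 was left out (adjusted p up to 0.186) and without the 3 libraries that stood apart (1.603, adjusted p = 0.0790). In hESC, alignments set aside as not unique made up 46.2% to 58.3% in LIS1+/+ and 34.9% to 52.5% in LIS1+/-. None of the tested markers of the 7 cell type lists was called between the genotypes there, but some sums did not overlap. Stem cell markers summed to 4704 to 4965 CPM in LIS1+/+ and 3610 to 3839 CPM in LIS1+/-. Sums were higher in LIS1+/- for mesenchyme (447 to 484 against 508 to 595 CPM) and for choroid plexus and roof plate (4.35 to 7.14 against 7.93 to 13.5 CPM). At Day 5, 3 of 6 stem cell markers were lower in LIS1+/-, with sums of 508 to 653 CPM against 930 to 1026 CPM, and NANOG was at 0. The floor plate and node markers summed to 213 to 253 CPM in LIS1+/- and 202 to 241 CPM in LIS1+/+ at Day 5, with 1 of 4 tested lower, SHH at 0 in both, and FOXA2 and NOTO at 0 in LIS1+/-. The part of these in the STOML3 difference was not tested.

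CCNO, a cyclin-like protein needed for making many centrioles in multiciliated cells, was higher in LIS1+/- at Day 12. It had 2 counts in all hESC LIS1+/+ libraries and 5 in those of LIS1+/-. At Day 5 it was at 0.724, 0.676 and 1.13 CPM in LIS1+/+ and at 2.99, 2.19 and 2.93 CPM in LIS1+/-. At Day 12 it was at 2.58, 1.26 and 1.46 CPM in LIS1+/+ and at 19.8, 9.96 and 9.12 CPM in LIS1+/-. The genotypes did not overlap at Day 5 or Day 12, and LIS1+/- was the higher one both times. The difference at Day 12 was 7.05-fold (2.82 ± 0.66 log2, adjusted p = 0.0242), from 9 and 99 counts. It held in the 6 alternatives that kept all Day 12 replicates or left out the 3 libraries that stood apart, and it was lost when any 1 of the 6 Day 12 libraries was left out (2.42 to 3.16 log2, adjusted p 0.0613 to 0.139). At Day 5 the difference was 1.63 ± 0.70 log2 and did not pass (adjusted p = 0.339), and its change from Day 5 to Day 12 did not pass either (1.19 ± 1.04 log2, adjusted p = 0.680).

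Within LIS1+/-, CCNO rose from Day 5 to Day 12 by 4.58-fold (2.20 ± 0.57 log2, adjusted p = 0.0087), a call lost without Day 12 LIS1+/- replicate 1 (adjusted p = 0.0740). In LIS1+/+ the same step was 1.01 ± 0.82 log2 and was not called. Of the other regulators of multiciliation, MYB was tested and not called between genotypes at Day 12, with 15 counts in LIS1+/+ and 40 in LIS1+/-. Others were too low to test: MCIDAS had 2 counts in LIS1+/+ and 0 in LIS1+/- at Day 12, GMNC 1 and 5, CDC20B 10 and 17, and TP73 5 and 13. At Day 12, markers of mesenchyme summed to 148 to 967 CPM in LIS1+/+ and 89.6 to 122 CPM in LIS1+/-, with 5 of 5 tested lower in LIS1+/-. Markers of liver, yolk sac and endoderm summed to 19.5 to 370 CPM and 9.12 to 18.2 CPM, with 2 of 2 lower. None of the 8 tested markers of choroid plexus and roof plate was called between the genotypes there, nor any of the 4 of floor plate and node. The part of these cell types in the CCNO difference was not tested.

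**Figure D4:**
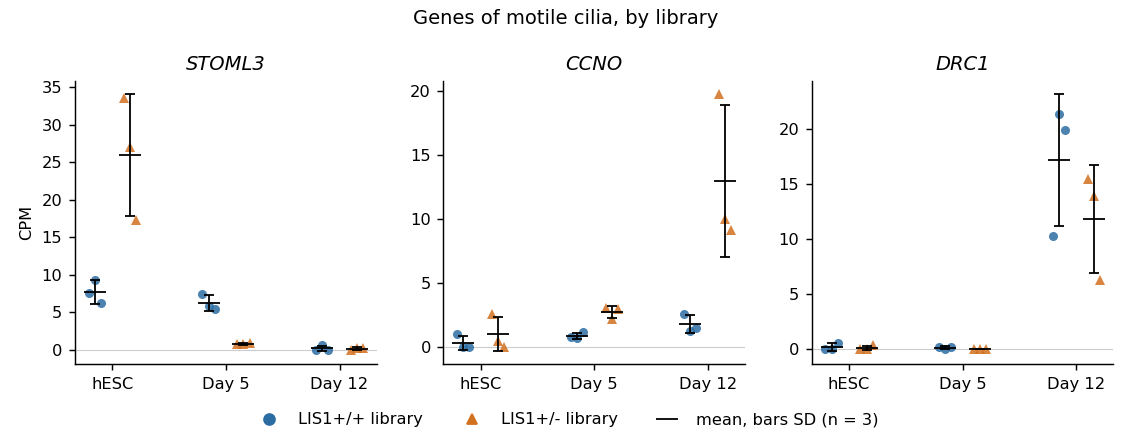
CPM (linear axes) of STOML3, CCNO and DRC1 in each of the 18 libraries by stage, with circles for LIS1+/+, triangles for LIS1+/-, and the mean ± SD of 3 libraries in black. STOML3 is above 17 CPM in hESC LIS1+/- alone, CCNO is above 9 CPM at Day 12 in LIS1+/- alone, and DRC1 is above 6 CPM at Day 12 in both genotypes.

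Beyond STOML3 and CCNO, no member was called between the genotypes. In hESC 1 member was higher and 0 lower in LIS1+/-, where 0.295% of all tested genes were higher and 0.196% lower. At Day 5, 0 were higher and 1 lower (0.671% and 1.28% of all tested genes), and at Day 12, 1 was higher and 0 lower (0.336% and 1.06%). The medians over the members were 0.27, 0.02 and 0.11 log2, against 0.03, 0.01 and -0.01 over all tested genes. For the average over stages no member passed in edgeR (0.745% of all tested genes higher and 1.32% lower), with 3 members at an unadjusted p under 0.05 and CCNO at 1.81 ± 0.54 log2 (adjusted p = 0.0822). CCNO passed there with DESeq2 (adjusted p = 0.0270) and without the filter (adjusted p = 0.0298). For differences of the genotype effect, STOML3 was the only member called from hESC to Day 5 (0.0819% of all tested genes higher and 0.491% lower). None was called from Day 5 to Day 12 (0.385% and 0.671%; 3 members at an unadjusted p under 0.05) or from hESC to Day 12 (0.0164% and 0.36%; 2 members), and DESeq2 called none either.

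Some members that did not pass had an unadjusted p under 0.05 or no overlap between the genotypes. In hESC 6 of 31 members had an unadjusted p under 0.05, as had 1367 of all 12215 tested genes, and 5 of the 6 did not pass. RFX3 was at 2.48 to 5.34 CPM in LIS1+/+ and 0.631 to 1.80 CPM in LIS1+/- (-1.56 ± 0.64 log2, adjusted p = 0.352). DYNC2H1 was at 0 to 2.67 CPM and 2.89 to 7.58 CPM (1.89 ± 0.69 log2, adjusted p = 0.274), and WDR19 at 3.10 to 6.68 CPM and 6.94 to 9.47 CPM (0.91 ± 0.37 log2, adjusted p = 0.353). Those 3 did not overlap between genotypes, while IFT140 and IFT172 did. RPGRIP1L, which the filter removed and which was not tested, did not overlap in hESC either. It had 2 counts in LIS1+/+ and 14 in LIS1+/-, a ratio of pooled counts of 5.54 (95% counting interval 1.27 to 50.3). At Day 12, 4 of 31 members had an unadjusted p under 0.05, as had 1548 of all tested genes, and CCNO alone passed. FOXJ1 was at 39.0 to 63.3 CPM in LIS1+/+ and 56.9 to 119 CPM in LIS1+/-, an overlapping difference of 0.78 ± 0.27 log2 (95% interval 0.22 to 1.35, adjusted p = 0.188). IFT122 was at 65.4 to 81.4 CPM and 98.9 to 105 CPM, without overlap (0.47 ± 0.21 log2, adjusted p = 0.327). IFT46, IFT172 and BBS2, whose unadjusted p was not under 0.05, did not overlap at Day 12 either. WDR35 was at 3.23 to 11.7 CPM in LIS1+/+ and 1.24 to 3.99 CPM in LIS1+/-, lower in LIS1+/- with overlap (-1.35 ± 0.54 log2, adjusted p = 0.268). Also without overlap between the genotypes were IFT27 and BBS1 in hESC, and RFX2, BBS1, DYNC2LI1 and CCNO at Day 5. How many of all tested genes did not overlap was not counted, so these separations are a description only.

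**Figure D5:**
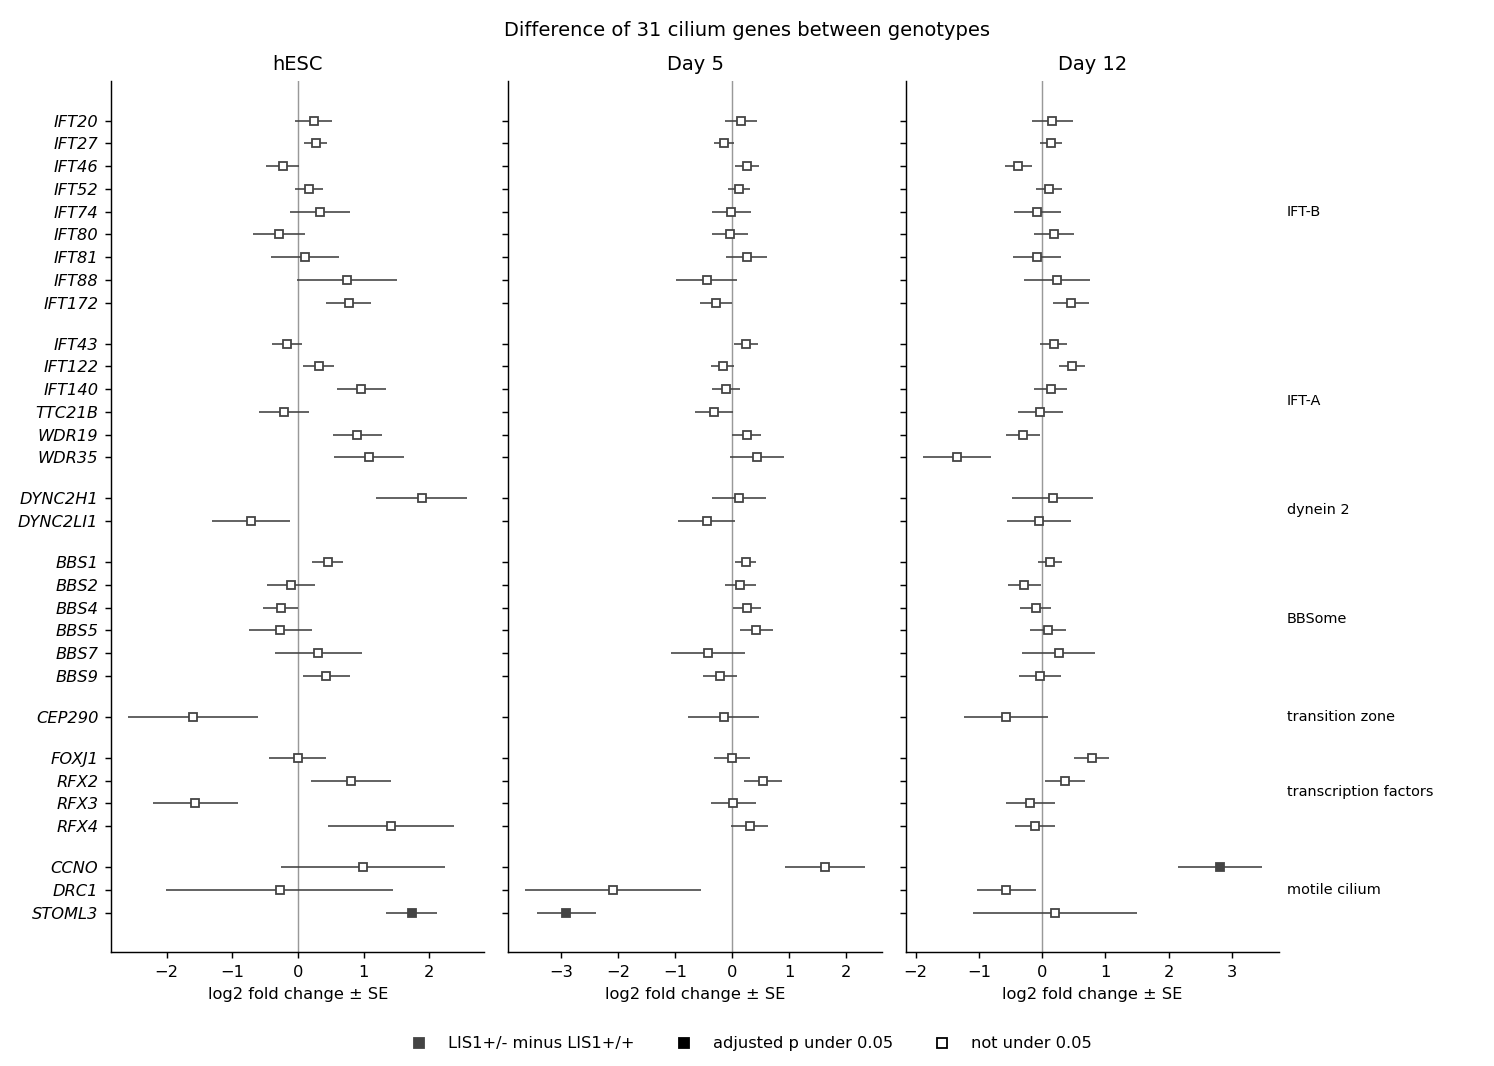
Log2 fold change ± SE (edgeR) of LIS1+/- minus LIS1+/+ for the 31 tested members in hESC, at Day 5 and at Day 12, filled where the adjusted p is under 0.05. The 3 filled points are STOML3 in hESC (1.73), STOML3 at Day 5 (-2.91) and CCNO at Day 12 (2.82).

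A wider list of 117 other cilium genes, of which 89 were tested, was read the same way. From hESC to Day 5 in LIS1+/+, 32 of the 89 rose and 6 fell, where 22.9% of all tested genes rose and 21.7% fell. From Day 5 to Day 12, 24 rose and 3 fell, where 12.7% rose and 11.7% fell. The list's medians were 0.66 and 0.54 log2, against 0.06 and 0.02 over all tested genes. In LIS1+/- the counts were 34 and 3 (22.4% and 21.4% of all tested genes), then 13 and 0 (8.9% and 7.64%). Genes of the motile axoneme and its assembly were 11 higher and 3 lower of 23 tested at the first step in LIS1+/+, and 11 higher and 0 lower at the second. Many others of that group were too low to test. Among them were the dynein chain genes DNAH5, DNAH7, DNAH9, DNAH11, DNAI1, DNAI2 and DNAL1. Summed over the Day 12 libraries these had 0 to 6 counts in LIS1+/+ and 3 to 16 in LIS1+/-. SPAG6, also not tested, had 7 and 31. Between genotypes 0 of the 89 were called at each stage in edgeR. At an unadjusted p under 0.05 were 8 in hESC, 6 at Day 5 and 6 at Day 12, beside 1367, 1404 and 1548 of the 12215 tested genes.

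C9orf171, a gene of the motile axoneme now named CFAP77, gave the most pronounced first step on that list. It had 0 counts in hESC LIS1+/+ and 4 in hESC LIS1+/-. At Day 5 it averaged 153 and 125 CPM and at Day 12 185 and 214 CPM, in LIS1+/+ and LIS1+/-. In LIS1+/+ it was at least 264-fold higher at Day 5 than in hESC, against a floor of 3 counts over the hESC group (adjusted p = 3.78e-11). SPATA7, ARL3 and PCM1, of the connecting cilium, ciliary membrane traffic and centriolar satellites, rose by 1.51 to 2.32 log2 at that step. DNAAF2, GAS8, IQCB1 and PIFO fell by 0.58 to 2.09 log2. From Day 5 to Day 12 TPPP3 rose from 6.57 ± 2.53 to 61.4 ± 27.7 CPM (SD, n = 3, adjusted p = 5.54e-06, edgeR) and DNALI1, a dynein light intermediate chain of the inner arms, from 13.01 ± 2.03 to 42.2 ± 0.497 CPM (adjusted p = 7.20e-05, edgeR). TMEM231 of the transition zone and KIFAP3 of kinesin-2 also rose, while RFX1, B9D1 and PKD1 fell by 0.93 to 1.05 log2. At Day 12 TPPP3 and DNALI1 were not called between genotypes, with differences of 0.09 ± 0.36 and 0.09 ± 0.26 log2.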

How the data were processed

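Bulk MARS-seq libraries, which count tags near transcript 3′ ends, were deposited as 18 files of raw counts per gene symbol. The authors' files are whole numbers with no normalization, and per the submitters' processing notes cutadapt, STAR and DESeq2 were used, with builds GRCh37 and hg38 named without a role. The sources used here give no versions and no use of strand. The 5 rows that name no gene held 49.2% to 70.6% of a file and were left out.

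Genes were filtered with filterByExpr, scaled with TMM and tested in edgeR 4.0.16 (quasi-likelihood F-test, robust fit, two-sided, R 4.3.3) with 1 fit of 18 libraries with 12 residual degrees of freedom. A gene was called where its p, adjusted by Benjamini-Hochberg over the 12215 tested genes, was under 0.05. Each SE of a log2 fold change was worked back from the test, as the absolute change divided by the square root of its F. It is not a standard error given by the fit. "Rose" and "fell" mean called. For groups with 1 to 3 counts the text gives the pooled count ratio and its 95% interval, which covers counting error only. Members, lists and the naming rule (all members, values per library for those called between genotypes and up to 3 per role by adjusted p, up to 4 per direction of the wider list) were chosen with earlier results of these data known. Alternatives were DESeq2 size factors, no filter, DESeq2 1.42.0, the compared libraries alone, a replicate block, and leaving out single libraries or the 3 that stood apart. The pipeline was tested on simulated data.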

Additional observations from a re-analysis of the deposited data

Results flagged for a closer look

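The genotype difference of STOML3 turned from higher in LIS1+/- in hESC to lower in LIS1+/- at Day 5, a change of -4.64 log2 that passed the test of the difference itself (adjusted p = 0.000339, edgeR). The 3 hESC libraries of LIS1+/- lay above the 3 of LIS1+/+, and the 3 Day 5 libraries of LIS1+/- lay below those of LIS1+/+. The file names of the 3 hESC LIS1+/- libraries all carry the same number, and the sources used here do not say what that number marks.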

How the results depend on the processing

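Of 104 calls of single members, 75 held under every alternative run, 29 were lost under at least 1, and 0 changed sign. Leaving out the 3 libraries that stood apart lost 13 calls and added 7; a fit of the compared libraries alone lost 5 and added 1; DESeq2 lost 0 and added 4. In hESC the count of members called between genotypes went from 1 to 0 without those 3 libraries. For the average over stages it went from 0 to 1 with no filter and with DESeq2, both times CCNO. Leaving out single libraries gave 0 to 1 members called in hESC, 0 to 0 at Day 12, 0 to 1 for the average, and 6 to 10 from Day 5 to Day 12 in LIS1+/-. The cause was not tested. The replicate block gave 14 members in place of 15 from hESC to Day 5 in LIS1+/+ and 16 in place of 17 in LIS1+/-, with no other count changed. Deviations from the group mean correlated at -0.126 to 0.101 between same-numbered libraries of a stage (9 pairs, 1 over 0.1). No strong shared deviation was seen. With 3 libraries in a group this cannot show whether same-numbered libraries were prepared together.

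The background counts moved more. Genes called between genotypes in hESC were 60, against 206 with no filter, 131 with DESeq2 and 153 with the compared libraries alone. At Day 5 they were 238, against 412 with no filter. At Day 12 they were 41 higher and 130 lower, against totals of 483 with no filter, 294 (DESeq2), 41 (compared libraries) and 381 (without the 3 libraries). For the average they were 252, against 536 with no filter, 416 with DESeq2 and 418 without the 3 libraries. Differences of the effect gave 70 genes from hESC to Day 5 (281 with no filter, 140 with DESeq2, 117 with the compared libraries), 129 from Day 5 to Day 12 (363, 205 and 77) and 46 from hESC to Day 12 (172 with no filter, 120 with DESeq2, 158 without the 3 libraries). Leaving out single libraries gave 21 to 41 genes in hESC, 125 to 186 at Day 5, 57 to 332 at Day 12 and 183 to 439 for the average. For the differences of the effect it gave 31 to 79, 59 to 170 and 11 to 138, in the order above. From Day 5 to Day 12 in LIS1+/- it gave 1317 to 1921, against 2020. Members with few counts, such as CCNO, DRC1 and CEP290, are limited by depth, with 3 counts worth up to 2.00 CPM in a library.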
